A study of Mus musculus with 2 samples.

Results

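Chromatin accessibility was examined at 9 genes that characterise the hepatic stellate cell: *Lhx2*, *Hand2*, *Lrat*, *Des*, *Pdgfra*, *Pdgfrb*, *Ngfr*, *Hgf* and *Tgfb1*. An accessible region was taken for a gene when the deposited region table named that gene as the closest one, at any distance, and the gene identifier was used where the symbol was blank. By this rule 9 of the 69549 distinct regions belonged to these genes, and they were shared among 5 of the 9 genes. *Hgf* had 3 regions, *Lhx2* and *Tgfb1* had 2 each, and *Hand2* and *Pdgfra* had 1 each. *Lrat*, *Des*, *Pdgfrb* and *Ngfr* had none. The assay was ATAC-seq, in which the Tn5 transposase cuts and tags exposed DNA in nuclei, so that reads pile up where chromatin is accessible. There were 2 liver libraries from C57BL/6 mice aged 8 weeks on normal chow. The control library came from *Mettl3* flox/flox mice, in which the gene of the RNA methyltransferase METTL3 is flanked by loxP sites but intact. The HKO library came from *Mettl3*-HKO mice, which carry the same floxed alleles and 1 copy of *Alb*-Cre. Each library was a pool of several mice and stood alone in its group, so no difference below has a replicate check and no p-value was computed.

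Stellate cells lie between the hepatocytes and the sinusoidal endothelium, where in the quiescent state they store vitamin A as retinyl esters in lipid droplets. On liver injury they turn into collagen-secreting myofibroblasts under the influence of platelet-derived growth factor (PDGF) and transforming growth factor beta (TGF-β), and they are the main source of scar matrix in the fibrotic liver. They are also a source of hepatocyte growth factor (HGF) for the neighbouring hepatocytes. The albumin promoter that drives Cre is active in the hepatocyte lineage and not in stellate cells, so the model does not delete *Mettl3* from the cells that these genes mark. In whole liver, a change in the number of stellate cells and a change in accessibility per cell cannot be told apart.

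The control library held 52826202 reads and the HKO library 58038305 reads, of which 31.7% and 22.3% fell on regions. Ratios are log2 values of HKO over control on the authors' scale, which is reads per 1000000 reads of the library (RPM) after 1 read is added. On that scale the median of all regions was −0.38 and that of the promoter regions, those centred within 1 kb of a transcription start site (TSS), was −0.56. Values relative to all regions, called centred, have the median of all regions subtracted. Each interval is an exact 95% interval by the Clopper-Pearson method and covers counting error only. The promoter region of *Mettl3* itself had 566 counts in the control library and 392 in the HKO library, which is no check of the deletion, since promoter accessibility does not show whether the floxed exons are present.

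Most stellate cell regions held a larger share of the reads in the HKO library. The ratio was above 0 at 7 of the 9 regions, against 35.2% of all regions, and at 5 of the 7 promoter regions, against 16.1% of all promoter regions. The 9 ratios had a median of 0.71 and ran from −1.09 at *Pdgfra* to 1.75 in intron 2 of *Hgf*. After centring, 8 of the 9 were above 0 and their median was 1.09. *Pdgfra* was below 0 on both scales, and the upstream region of *Lhx2* on the authors' scale alone. Of the 7 regions above 0, 3 had a peak in the HKO library only and so are in the table through the library where they are high. Among the 6 regions with a peak in both libraries, 4 were above 0 and the median was 0.25, where 23.3% of all such regions were above 0 and their median was −0.47.

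Few of these differences reached 2-fold on the authors' scale. At least 2-fold higher values were seen at 2 of the 9 regions, 1 at *Hand2* and 1 at *Hgf*, against 13.2% of all regions, and a value at least 2-fold lower at 1 region, that of *Pdgfra*, against 18.3%. These shares of 22.2% and 11.1% lie near the background for so few regions. Both 2-fold higher regions had a peak in the HKO library only, and none of the 6 regions with a peak in both libraries was 2-fold higher, against 2.91% of all such regions. After centring, 5 regions were at least 2-fold higher, where 20.0% of all regions were, and none was 2-fold lower, where 7.89% of all regions were. Of the 7 promoter regions, 1 passed 2-fold upward and 1 downward, against 4.07% and 16.3% of all promoter regions. The interval lay above no change at 6 regions (21.1% of all regions), below it at 1 (48.7%) and spanned it at 2. A peak was called in both libraries at 6 regions and in the HKO library alone at 3, against 21.5% of all regions, while no stellate cell region had a peak in the control library alone, against 16.8%.

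**Figure D1:**
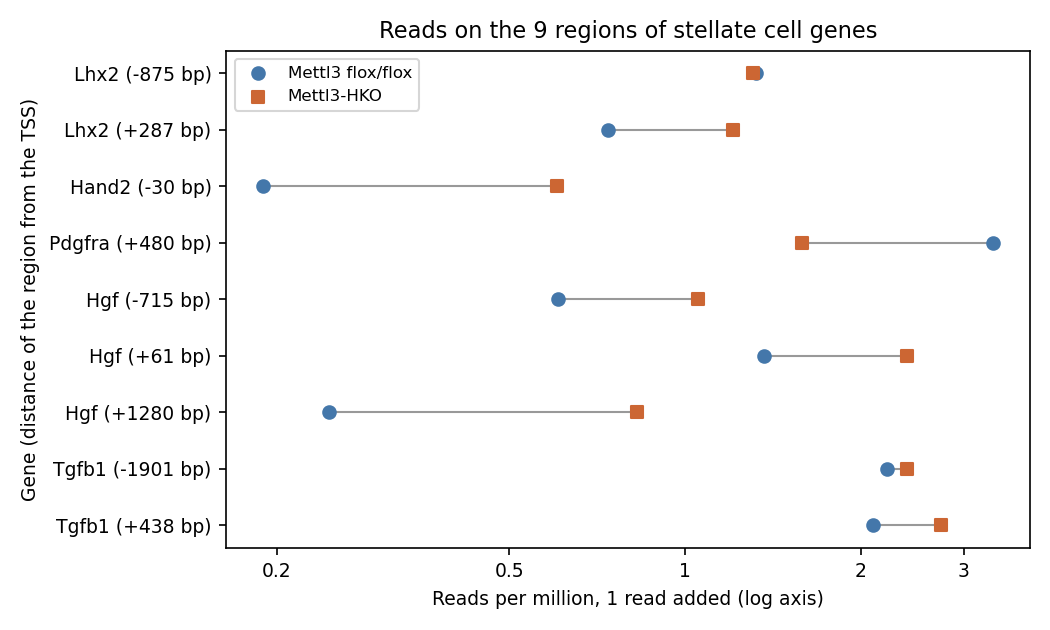
RPM (log axis, 1 read added) on each of the 9 regions of stellate cell genes, with a circle for the control library and a square for the HKO library, 1 pooled library each. The square lies to the right at 7 regions, from 0.189 to 0.603 RPM at *Hand2* for example, and clearly to the left at *Pdgfra*, from 3.37 to 1.59 RPM.

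*Hand2* encodes a basic helix-loop-helix transcription factor of mesenchymal cells that marks stellate cells in the adult liver. Its single region, 208 bp on chromosome 8 from 57320850 to 57321057 (GRCm38), was centred at −30 bp and ran from the intergenic side over the TSS into the 5′ UTR. It had 9 counts in the control library and 34 in the HKO library, or 0.189 and 0.603 RPM. The HKO library was higher by 3.19-fold, a log2 ratio of 1.67 (95% interval 0.69 to 3.03), or 2.05 after centring. A peak was called there in the HKO library only. The 9 counts make this the faintest of the 9 regions, and faint regions differed widely in general. Among the 10% of all regions with the lowest mean signal, to which it belongs, the median ratio was 0.78, 42.6% were at least 2-fold higher in the HKO library and 67.4% had a peak in that library only. *Hand2* stood at the 81.1 percentile of that group.

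The DNA just before the start of *Hand2* is shown because the region covers the stretch nearest the gene. The 250 bases before the RefSeq start, on the plus strand of GRCm38.p6 at chr8:57320733-57320982, read 5′ to 3′ as follows, with capitals for matches to 6 searched motifs.
Hand2: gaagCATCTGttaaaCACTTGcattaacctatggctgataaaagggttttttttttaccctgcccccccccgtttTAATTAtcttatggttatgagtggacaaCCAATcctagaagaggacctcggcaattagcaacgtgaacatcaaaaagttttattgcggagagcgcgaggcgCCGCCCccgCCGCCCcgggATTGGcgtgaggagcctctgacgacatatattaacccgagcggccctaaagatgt
The motifs were the TATA box (TATAAA), the GC box (GGGCGG), the CCAAT box (CCAAT), the E-box (CANNTG), the AP-1 site (TGANTCA) and the core bound by LIM homeodomain proteins (TAATTA), each searched on both strands. Of 32851 RefSeq promoters cut to the same 250 bases, 12.4%, 32.7%, 33.8%, 66.2%, 6.75% and 4.84% held them in that order. The last 133 of the printed bases lie in the accessible region, and they include 2 GC boxes at −74 and −65 and a CCAAT box, read on the minus strand as ATTGG, at −55. A second CCAAT box at −147, the E-boxes at −246 and −235 and the TAATTA at −175 fall outside it. The sequence is 49.2% G or C and has 15 CpG dinucleotides, where the median promoter has 52.4% and 6. A match describes the letters only.

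*Lhx2* encodes a LIM homeodomain transcription factor that holds stellate cells in the quiescent state. Both of its regions lie on chromosome 2 and had a peak in each library. The upstream one, 218 bp from 38349776 to 38349993 and centred at −875 bp, lies before the authors' TSS but within the RefSeq span of the gene. It had 69 counts in the control library and 75 in the HKO library, or 1.33 and 1.31 RPM. The libraries did not differ there beyond counting error, with a log2 ratio of −0.02 (95% interval −0.51 to 0.48) that turned to 0.36 after centring (−0.13 to 0.86). The second, 277 bp from 38350909 to 38351185 and centred at +287 bp in the 5′ UTR, had 38 and 69 counts, or 0.738 and 1.21 RPM. More reads fell on it in the HKO library, with a log2 ratio of 0.71 (95% interval 0.13 to 1.34) and a centred value of 1.09. Over both regions *Lhx2* had 107 and 144 counts, a ratio of 0.29 (95% interval −0.08 to 0.67). RefSeq puts a start of *Lhx2* at 38351308, and seen from there the 2 regions lie at −1424 and −262 bp. The 250 bases before that start held no match to a searched motif and are 68.4% G or C with 24 CpG dinucleotides. Those before a further RefSeq start, at 38339281, held 4 GC boxes and are 72.8% G or C, and no region assigned to *Lhx2* covers them.

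Of the 3 receptor genes only *Pdgfra*, which encodes the PDGF receptor alpha carried by quiescent stellate cells and other fibroblasts, had a region. It is 378 bp on chromosome 5 from 75156191 to 75156568, centred at +480 bp, and runs from the 5′ UTR into intron 1. It had 177 counts in the control library and 91 in the HKO library, or 3.37 and 1.59 RPM. *Pdgfra* thus went the other way from the other genes, being 2.13-fold lower in HKO with a log2 ratio of −1.09 (95% interval −1.48 to −0.72). After centring it was still lower, at −0.71 (−1.10 to −0.35). It had the highest mean signal of the 9 regions, 2.48 RPM. Regions of like signal were mostly lower in the HKO library as well, with a median of −0.47 and 20.6% of them at least 2-fold lower, and *Pdgfra* stood at the 17.2 percentile among them. The RefSeq promoter table places a start of *Pdgfra* at 75152251, which is 4128 bp upstream of the region, while the RefSeq span of the gene begins at 75151322, and no region covered the 250 bases before the start in the promoter table.

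*Hgf* encodes hepatocyte growth factor, the ligand of the MET receptor on hepatocytes, which stellate cells secrete. Its 3 regions on chromosome 5 were all higher in the HKO library. The region at the start, 622 bp from 16553301 to 16553922, was centred at +61 bp in the 5′ UTR, with a peak in both libraries. It had 71 counts in the control library and 138 in the HKO library, or 1.36 and 2.39 RPM. The ratio was 0.81 on the log2 scale (95% interval 0.40 to 1.26) and 1.19 after centring. The region at −715 bp, 237 bp from 16552717 to 16552953, had 31 and 60 counts, or 0.606 and 1.05 RPM, with a ratio of 0.79 (95% interval 0.17 to 1.49). The region in intron 2 at +1280 bp, 200 bp from 16554731 to 16554930, had 12 and 47 counts, or 0.246 and 0.827 RPM. Its difference was the largest of the 9, 3.36-fold, with a log2 ratio of 1.75 (95% interval 0.90 to 2.88). The upstream region and the one in intron 2 had a peak in the HKO library alone. Summed over its regions *Hgf* had 114 and 245 counts, a ratio of 0.96 (95% interval 0.64 to 1.30) and 1.34 after centring.

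Among regions of like signal, the region at the start of *Hgf* stood at the 88.4 percentile. The upstream region and the one in intron 2, which are in the table through their HKO peaks, stood at 75.4 and 92.3. RefSeq lists starts of *Hgf* at 16553495 and 16553901, and the region at the start touches the sequence before each of them. The 250 bases before the upstream one, on the plus strand at chr5:16553245-16553494, are shown because their region had the highest ratio of the promoter regions called in both libraries.
Hgf: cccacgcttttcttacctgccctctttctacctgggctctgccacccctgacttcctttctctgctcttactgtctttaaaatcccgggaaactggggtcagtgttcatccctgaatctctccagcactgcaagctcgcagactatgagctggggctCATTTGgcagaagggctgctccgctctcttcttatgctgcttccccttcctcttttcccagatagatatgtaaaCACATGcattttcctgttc
Capitals mark E-boxes at −93 and −19, the only matches, and both lie among the 194 bases covered by the region. This sequence is 50.8% G or C with 4 CpG dinucleotides, close to the median promoter. The 250 bases before the downstream start lie wholly in the region and held no match.

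*Tgfb1* encodes TGF-β1, the chief profibrogenic cytokine of the liver, which macrophages and endothelial cells make as well as stellate cells. Both of its regions, on chromosome 7, had peaks in both libraries. The one centred at −1901 bp, 510 bp from 25686735 to 25687244, had 116 counts in the control library and 138 in the HKO library, or 2.21 and 2.39 RPM. The libraries differed there by less than counting error, with a log2 ratio of 0.11 (95% interval −0.25 to 0.48), or 0.49 after centring (0.13 to 0.86). The region at +438 bp, 470 bp from 25689094 to 25689563, had 110 and 158 counts, or 2.10 and 2.74 RPM. The HKO library was slightly higher, with a ratio of 0.38 (95% interval 0.03 to 0.75). The summed counts of 226 and 296 gave a ratio of 0.25 whose interval just spanned no change (−0.0012 to 0.51).

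The authors' table takes 25688890 as the *Tgfb1* TSS and reads the region at +438 bp as last exon, from a model that ends at 25691462. RefSeq starts the gene at 25687002, and on that start the region named −1901 bp is centred at −13 bp while the other lies 2326 bp into the gene. The promoter of *Tgfb1* in RefSeq terms is therefore the region outside the 1-kb window. The 250 bases before the RefSeq start, on the plus strand at chr7:25686752-25687001, lie wholly in it and are shown for that reason.
Tgfb1: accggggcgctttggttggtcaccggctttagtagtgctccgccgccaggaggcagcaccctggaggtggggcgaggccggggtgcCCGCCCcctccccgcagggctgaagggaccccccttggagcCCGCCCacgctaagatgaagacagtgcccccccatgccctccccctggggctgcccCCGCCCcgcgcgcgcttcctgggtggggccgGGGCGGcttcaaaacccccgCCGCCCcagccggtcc
Capitals mark 5 GC boxes, at −164, −123, −67, −36 and −16, of which the one at −36 is on the plus strand. The sequence is 75.2% G or C with 21 CpG dinucleotides, well above the promoter medians. The other printed promoters had fewer CpG dinucleotides, 15 at *Hand2* and 4 at *Hgf*. RefSeq promoters were found for 8 of the 9 genes, all but *Pdgfrb*.

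**Figure D2:**
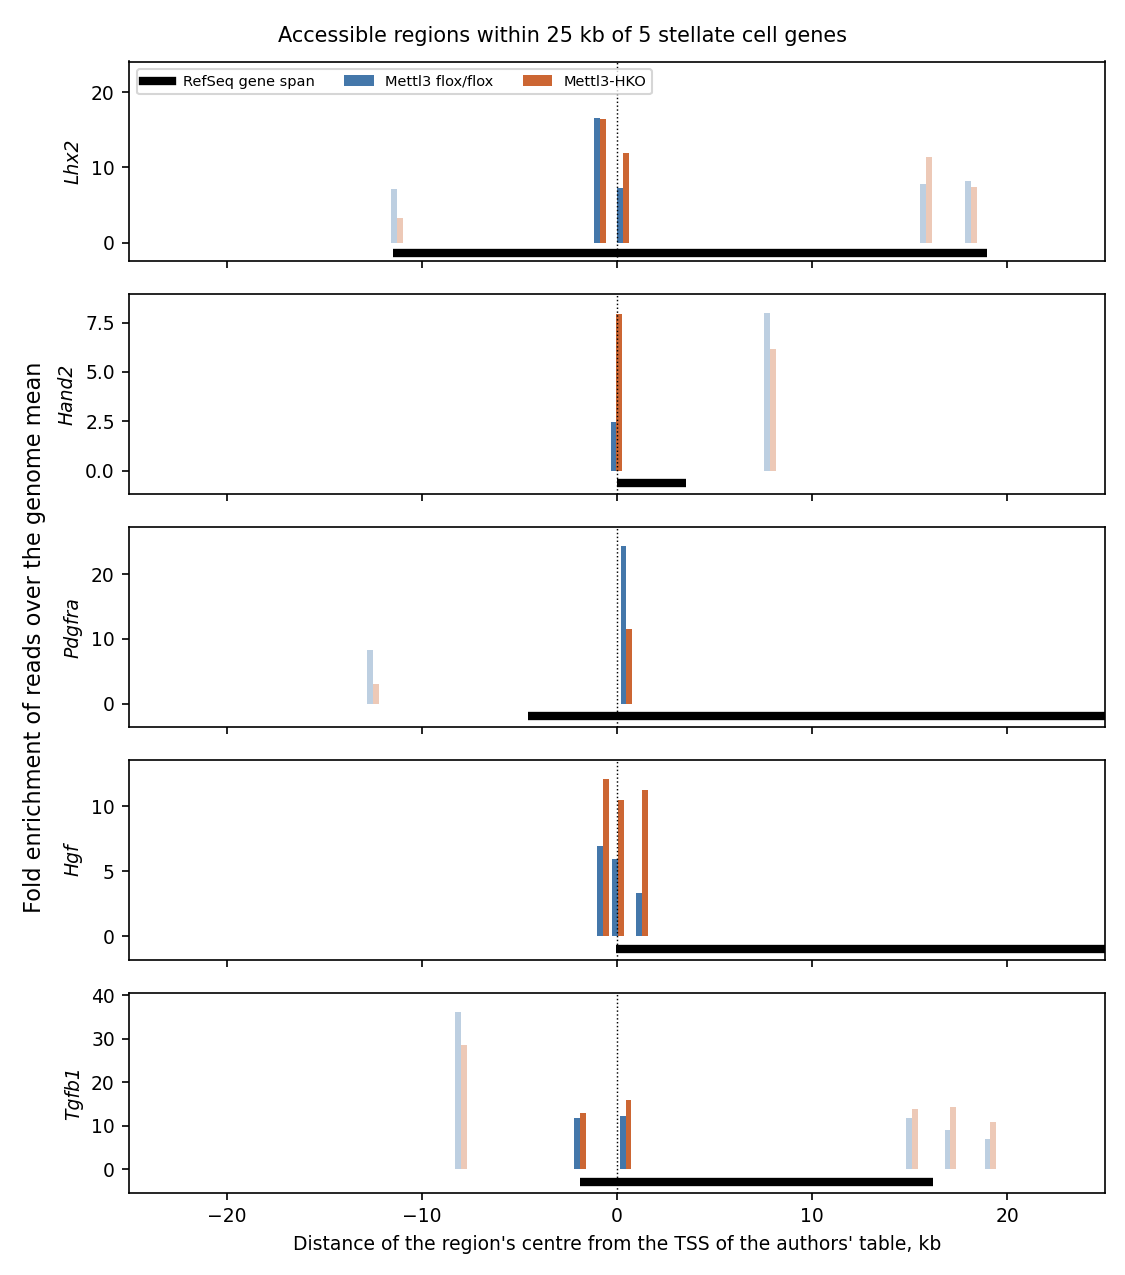
Fold enrichment of reads over the genome mean (vertical axis) against the distance in kb of each region's centre from the TSS of the authors' table, in 5 panels with blue bars for *Mettl3* flox/flox and orange bars for *Mettl3*-HKO. Pale bars are regions that the table gives to another closest gene, black lines are RefSeq gene spans, and bar widths are not region lengths. The regions of *Hgf* and *Hand2* are taller in *Mettl3*-HKO and that of *Pdgfra* is shorter, 11.5 against 24.3.

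The 4 genes without a region carry well known stellate cell functions. *Lrat* encodes the acyltransferase that makes the stored retinyl esters, *Des* the intermediate filament desmin, *Pdgfrb* the receptor through which PDGF drives stellate cell growth, and *Ngfr* the p75 neurotrophin receptor. Searching unnamed regions by identifier, or for *Des* by coordinates, added none. The nearest region to *Des* was 2.70 kb away, in an intron of an unnamed gene, with 44 and 45 counts and a log2 ratio of −0.10 (95% interval −0.74 to 0.53). That of *Lrat*, 15.9 kb away, was given to *Rbm46* and had 70 counts in the control library and 32 in the HKO library, a ratio of −1.24 (−1.92 to −0.64). That of *Pdgfrb*, 23.4 kb away in intron 1 of *Csf1r*, had 28 and 48 counts and a ratio of 0.62 (−0.06 to 1.37). That of *Ngfr*, 34.7 kb away, was given to *Nxph3* and had 12 and 40 counts, a ratio of 1.52 (0.64 to 2.67). None of these belongs to a stellate cell gene by the rule. A table of regions lists no counts elsewhere, so accessibility of these 4 genes below the peak threshold was not measured.

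Per length, the stellate cell regions were weaker than the typical promoter region in both libraries. Fold enrichment, the reads per base of a region over those of the genome, ran from 2.49 at *Hand2* to 24.3 at *Pdgfra* in the control library, with a median of 7.28 against 11.4 for all regions and 25.8 for promoter regions. In the HKO library it ran from 7.92 at *Hand2* to 16.4 at the upstream region of *Lhx2*, with a median of 11.9 against 9.87 and 16.7. None of the 9 regions exceeded the promoter median in either library, while 4 exceeded the median of all regions in the control library and 8 in the HKO library. The order of the regions changed between libraries, since *Pdgfra* led in the control library and fell to 11.5 in the HKO library, below *Lhx2*, *Tgfb1* and the upstream region of *Hgf*. The median stellate cell region had 69 and 75 counts, where the median promoter region had 370 and 265.

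Signal and ratio went together over all regions, which touches every value above. When all regions were cut into 10 equal groups by mean RPM, the median ratio fell from 0.78 in the weakest to −0.65 in the strongest, and the stellate cell regions lay in the lower 7 groups. Set against their own group, 8 of the 9 regions lay above its median and 7 above its upper quartile, or 5 and 4 of the 6 regions with a peak in both libraries. The exceptions to the second count were the upstream region of *Lhx2*, at the 57.5 percentile, and *Pdgfra*. The part of read depth and of the lower share of reads on regions in the HKO library was not tested.

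**Figure D3:**
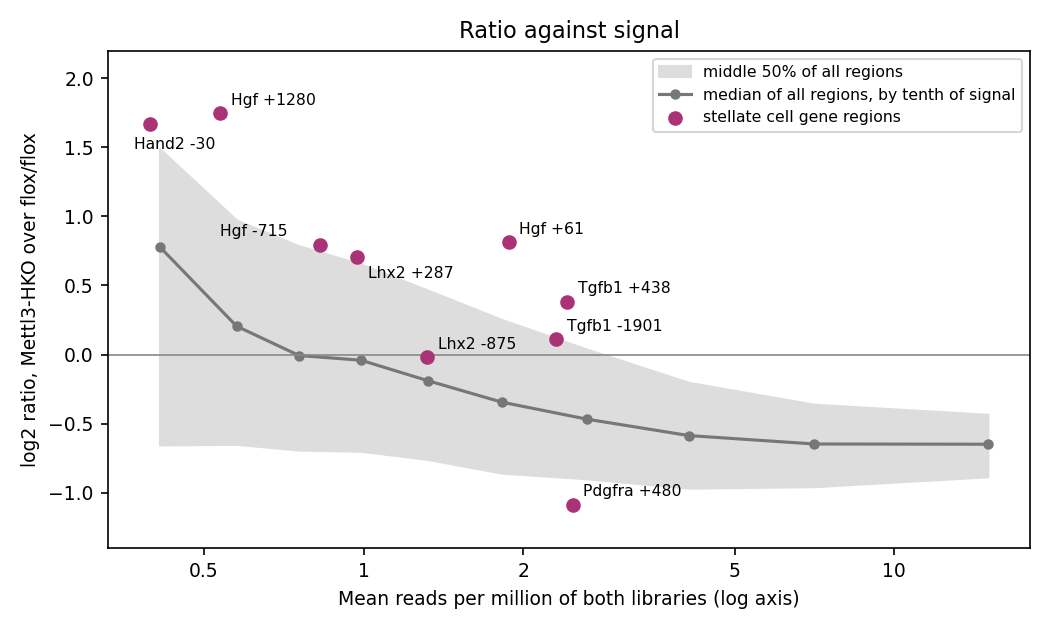
HKO over control as a log2 ratio (vertical axis) against the mean RPM of both libraries (log axis). Purple points are the 9 stellate cell regions, the grey line is the median of each of 10 equal groups of all regions by signal and the band is their middle 50%. All points but that of *Pdgfra* lie above the line, and that point, at −1.09, lies below the band.

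**Figure D4:**
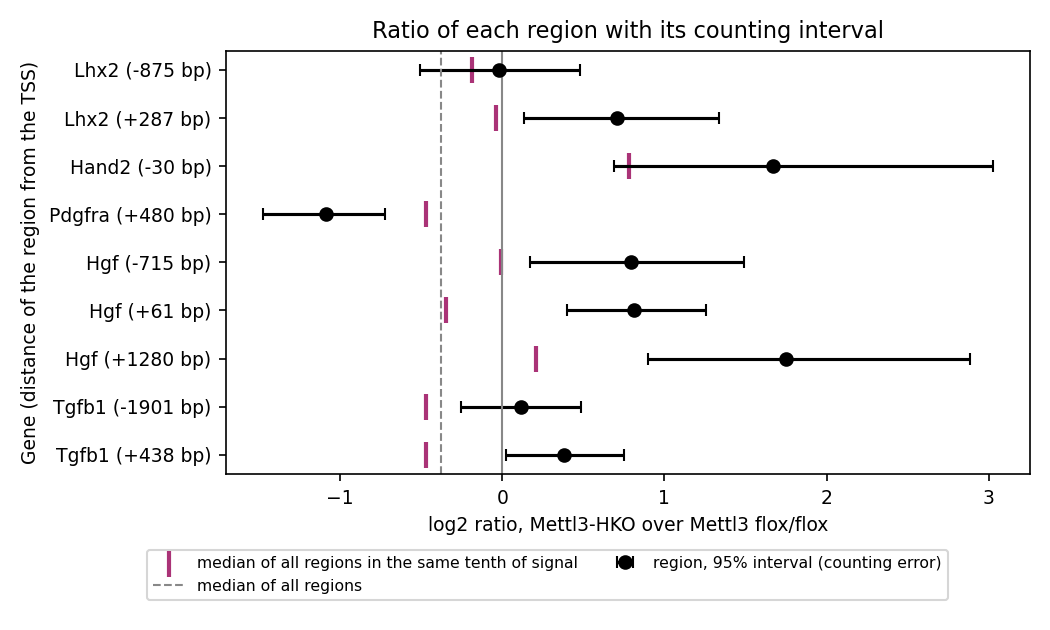
Log2 ratio of each of the 9 regions with its 95% Clopper-Pearson interval, which covers counting error only, beside the median of all regions at −0.38 (dashed line) and the median of regions of like signal (purple marks). The intervals at the *Hgf* regions, *Hand2*, the region of *Lhx2* at +287 bp and that of *Tgfb1* at +438 bp lie above 0, and that of *Pdgfra* lies below it.

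By gene, the median ratio over a gene's regions was at least 1 at *Hand2* and at most −1 at *Pdgfra*, so 1 of the 5 stellate cell genes passed in each direction. Of 27428 genes with a region, 9.65% passed upward and 14.2% downward, and the median gene stood at −0.37. The 9 lists of related genes gave the same kind of count for the pathways around these members. They hold 87 different genes, of which 70 had a region, and 3 of those (4.29%) passed upward and 11 (15.7%) downward, with a median of −0.29. The upward share lies below that of all genes and the downward share near it. Over regions with a peak in both libraries, 0 of 60 genes passed upward and 5 (8.33%) downward, against 1.92% and 12.2% of all genes. Above 0 stood 22 of the 70 genes and 4 of the 5 stellate cell genes, against 32.8% of all genes, and *Lhx2*, one of the 4, fell to −0.02 once regions inside its RefSeq span were added.

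The lists of quiescent and activated stellate cell genes had gene medians near 0. Of 12 quiescent markers 8 had a region, with a gene median of −0.09 but summed counts of 2449 and 1625. Of their 18 regions 5 were at least 2-fold lower and none higher, against 18.3% and 13.2% of all regions. Here *Reln*, a secreted matrix protein, was the only gene past 2-fold, with 690 counts in the control library and 132 in the HKO library and a ratio of −2.51 (95% interval −2.80 to −2.25). Of 14 genes of activated cells 12 had a region, with a median of −0.07 and summed counts of 2963 and 2573. Among them *Postn*, *Thbs1* and *Col1a2*, encoding matrix proteins, were lower at −2.14, −1.21 and −1.05, while 5 of the 12 genes were above 0 and 4 of the 25 regions were at least 2-fold higher against 5 lower. The regions of *Thbs1* and *Col1a2*, 1 each, had a peak in the control library only, the library where they are high. Of the 3 regions of *Postn*, 1 had a peak in both libraries, at −0.76. When only regions with a peak in both libraries were kept, 8 genes of activated cells remained. None of them passed 2-fold in either direction, 5 were above 0 and their median was 0.11. *Fn1*, the fibronectin gene, held the most counts, 1248 and 1116, with a median of −0.02. The medians of the quiescent and activated lists lie above 0 after centring, at 0.29 and 0.31.

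Of 11 genes for transcription factors of mesenchymal cells 8 had a region, with a median of 0.02. Genes past 2-fold were found in both directions. *Mef2c* and *Pparg*, a factor that keeps stellate cells quiescent, stood at 1.11 and 1.02, while *Nr2f2*, a nuclear receptor, stood at −1.08 with 2575 and 1481 counts. Of the regions of *Mef2c* and *Pparg*, 3 of 6 and 3 of 4 had a peak in the HKO library only, and their summed ratios were 0.63 and 0.56. Over regions with a peak in both libraries, none of the 7 genes that had one passed 2-fold in either direction.

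The lists of partner genes of the receptors and ligands are read against the median gene at −0.37. All 4 PDGF ligand genes had a region, with a median of −0.36 that turned to 0.01 after centring. *Pdgfb*, whose product activates PDGF receptor beta, stood at 1.07 on 12 and 29 counts, in 1 region with a peak in the HKO library only. *Pdgfa* had the most counts, 799 and 620, and stood at −0.50. Over regions with a peak in both libraries, none of the 3 PDGF ligand genes that had one was above 0. Of 20 genes of TGF-β signalling 18 had a region, with a median of −0.31, or 0.07 after centring, and *Skil*, a repressor of SMAD signalling with 4203 and 2863 counts, was lower at −1.07. Of 6 genes of HGF signalling 5 had a region, with a median of −0.62. *Met*, the HGF receptor, had 3302 and 2130 counts over 13 regions and a median of −0.42, and *Spint1*, an inhibitor of HGF activation, stood at −1.16. The median of *Met* thus lay near that of all regions at −0.38. Its summed ratio was lower, at −0.77 (interval −0.85 to −0.69), and its promoter region stood at −1.21.

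The neurotrophin genes, of which 5 of 7 had a region, had a median of −0.67, and *Ntf3* held the most counts, 2188 and 1712. Of 10 genes of retinoid handling 9 had a region, with a median of −0.38. *Cyp26a1*, which degrades retinoic acid, stood at −1.65 on 1829 and 703 counts, *Rbp4*, the plasma retinol carrier, at −1.01, and *Rdh10*, a retinol dehydrogenase, held the most counts at 3275 and 2238. Of 5 partners of desmin 2 had a region, *Vim* with 353 and 418 counts and a ratio of 0.11, and *Nes* at 0.98. Both regions of *Nes* had a peak in the HKO library only. *Vim* and *Gfap* stand on 2 of the lists.

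Markers of some other liver cells also stood higher in the HKO library, and their part in the result was not tested. All 8 endothelial markers had a region and stood above 0, with a median of 0.91, where 32.8% of all genes were above 0. Of these markers 4 passed 2-fold upward, *Cdh5* at 1.83, *Pecam1* at 1.36, *Kdr* at 1.30 and *Tek* at 1.15, against 9.65% of all genes. All regions of *Cdh5*, 3 of 6 of *Pecam1*, 3 of 4 of *Kdr* and 4 of 6 of *Tek* had a peak in the HKO library only. Over regions with a peak in both libraries 5 of 7 endothelial genes were above 0 with a median of 0.25. Of all 22017 genes with such a region 4486 were above 0, and the median of all was −0.47. The summed counts of the endothelial markers were 1736 and 2399. *Stab2*, with the most at 661 and 448, had a median of 0.36 but a summed ratio of −0.70. Of 8 macrophage markers 5 had a region, with a median of 0.36. *C1qa* and *Clec4f* were higher at 2.05 and 1.07, on 8 and 40 and on 12 and 29 counts. Each had 1 region, with a peak in the HKO library only. *Marco* had the most counts, 463 and 35, in 2 regions of opposite direction at −5.97 and 1.91, whose median was −2.03. Neither region of *Marco* had a peak in both libraries, and *Cd5l*, *Vsig4* and *Timd4* had no region. Over regions with a peak in both libraries, 1 of 2 macrophage genes was above 0 and their median was −0.16. The macrophage sum was 758 and 387, and 295 and 352 without *Marco*.

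Of 7 cholangiocyte markers 4 had a region, with a median of 0.12 and summed counts of 2053 and 1779, while *Krt19*, *Krt7* and *Cftr* had none. Of 7 lymphocyte markers only *Cd8a* had regions, with 56 and 80 counts in all and ratios of −0.08 and 2.09 at its 2 regions, and *Ptprc* and *Cd3e* had none. All 8 hepatocyte markers had regions, with a median of −0.58 and sums of 28579 and 21702, *Ttr* at −1.08, and *Apoa1* with the most counts, 7610 and 6593. Markers of smooth muscle and portal fibroblasts had a region in 5 of 7 genes, a median of −0.62 and sums of 944 and 983, with *Entpd2* at 2.30 on 119 and 384 counts and *Fbln2* highest in counts at 543 and 407. *Gpm6a* was the only one of 3 mesothelial markers with a region, at −0.56, and 2 of 3 Schwann cell markers had one, with a median of −0.31, or 0.07 after centring. In all 51 such markers, 34 had a region, of which 8 (23.5%) passed upward and 2 (5.88%) downward, against 9.65% and 14.2% of all genes. Every gene that passed upward had at least 1 region with a peak in the HKO library only, which is in the table through the library where it is high. Over regions with a peak in both libraries, 1 of 30 markers passed upward (*Eng*, named after its value was seen) and 1 downward, or 3.33% each, against 1.92% and 12.2% of all genes with such a region.

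**Figure D5:**
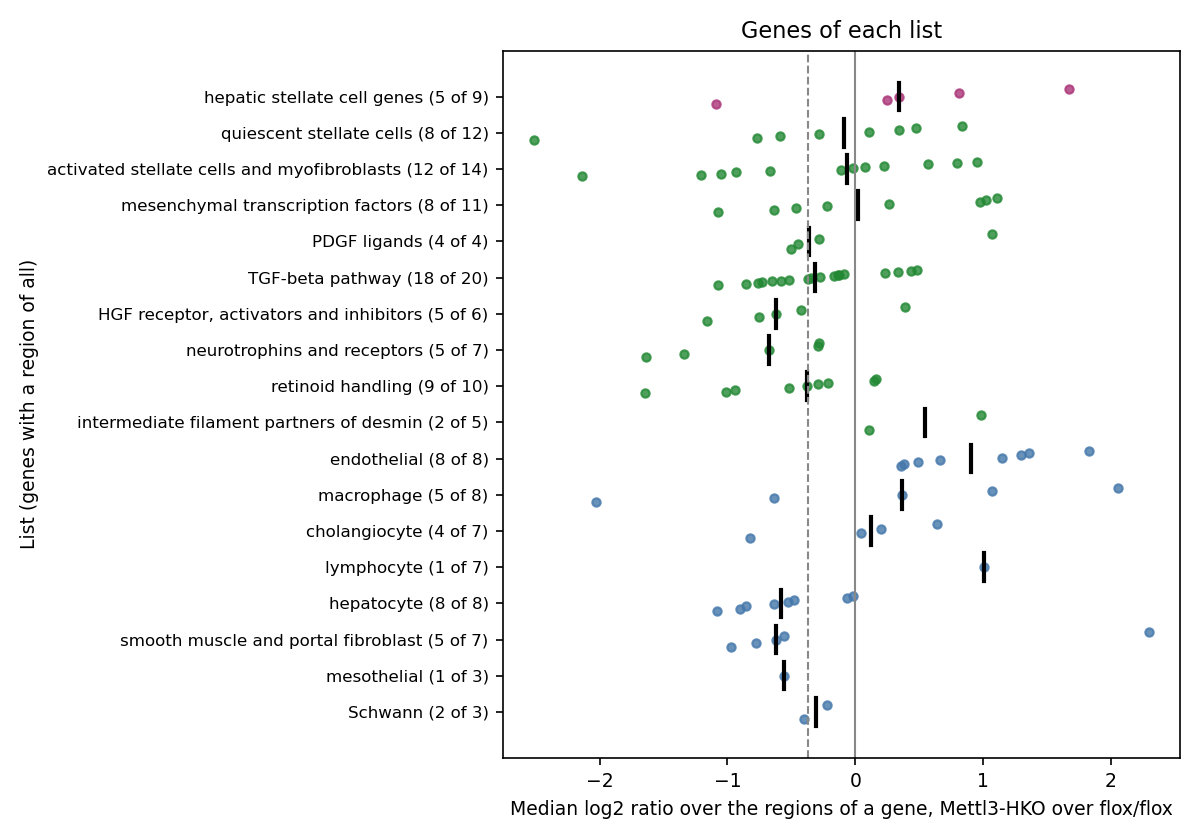
Median log2 ratio over the regions of each gene, 1 point per gene, for the stellate cell genes, 9 pathway lists and 8 lists of cell type markers, with the median of each list as a black bar and that of all genes as a dashed line. The stellate cell list has 5 of 9 genes with a region and runs from −1.09 to 1.67, the endothelial list has 8 of 8 above 0 and the hepatocyte list lies at a median of −0.58.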

How the data were processed

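Nuclei from pooled livers were tagged with Tn5 transposase and the libraries were sequenced as paired ends. The authors trimmed the reads with skewer, aligned them with BWA to GRCm38, filtered them for proper pairs outside the mitochondrial genome and called peaks for each library with MACS2, keeping all duplicates. Duplicates make reads less independent than the intervals assume. How reads were counted on merged regions, and whether ends were shifted for Tn5, is not given in the sources used here.

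The deposited table gives for each merged region the read count of each library, which is not normalized. The authors also deposited RPM values, which are the count plus 1 read per 1000000 reads of the library, and a fold enrichment ratio, which is reads per base over those of the genome. The authors' own fold-change column was not used. Repeated entries of a region were merged, which left 69549 of 74821.

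The members and gene lists were chosen with earlier results of these data known. Groups followed the genotype labels, 1 library each, so the comparison rests on counts, ratios and Clopper-Pearson intervals (scipy 1.17.1 and pandas 2.3.3 under Python 3.11.15, with numpy 2.4.6, and matplotlib 3.10.9 for figures), tested on simulated data. Every member was named with its promoter, highest, lowest and strongest regions. From other lists, up to 4 genes per direction with a median of at least 1 or at most −1 and the gene with the most counts were named. Some genes that this rule picks are not reported here. Unnamed regions were searched by gene identifier, and for *Des* by coordinates with 50% reciprocal overlap. Sequences are from the RefSeq promoter table of GRCm38.p6. Alternatives covered scaling, added reads, the signal filter, the fold threshold, the promoter window and the assignment of regions.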

Additional observations from a re-analysis of the deposited data

How the results depend on the processing

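No paired analysis was possible because each group has 1 pooled library, and for the same reason no library could be left out in turn. Against 2 regions at least 2-fold higher and 1 lower, centring on the median of all regions gave 5 and 0, setting the strongest 10% of promoters to no change gave 6 and 0, and scaling to the reads on regions gave 5 and 0. The shift came from the scale itself, since each subtracts a negative value. Under the strongest promoters the median rose from 0.71 to 1.35, over the 9 regions and over the 7 promoter regions alike. A threshold of 1.5-fold gave 5 higher regions. Keeping the upper 50% of mean signal left 4 regions and none higher, and keeping regions with a peak in both libraries left 6 and none higher, with a median of 0.25, which was computed after seeing the data. The same restriction, also added then, moved the related pathway genes past 2-fold from 3 higher and 11 lower to 0 and 5, and the cell type markers from 8 and 2 to 1 and 1. With all 29 regions within 50 kb of a TSS, 3 were higher and 6 lower, although *Pdgfrb* could not be placed for that count. Adding regions in the RefSeq gene span, chosen after seeing the data, gave 13 regions with 2 lower and turned the median of *Lhx2* from 0.35 to −0.02 over 5 regions, and RefSeq starts, also chosen then, moved the promoter median to 0.80 over 6 regions. Over all scalings and read additions *Hand2* stayed between 1.08 and 2.32, the intron 2 region of *Hgf* between 1.24 and 2.39, and *Pdgfra* between −1.09 and −0.44, and the upstream *Lhx2* region ran from −0.03 to 0.63. The signal filter left no region of *Lhx2* or *Hand2*, and these genes and *Pdgfra* had no region outside the promoter. Depth limits the fainter regions most, as the interval of 0.69 to 3.03 at *Hand2* shows.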

Other observations

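Within 50 kb of the TSS of a stellate cell gene lay 20 further regions whose closest gene was another one. *Pdgfrb* could not be placed and is left out of this count. Of these 1 was at least 2-fold higher in the HKO library and 5 at least 2-fold lower, or 5% and 25% against 13.2% and 18.3% of all regions, the log2 ratios spanning −1.97 to 2.01 around a median of −0.55. They were chosen for description after their values were seen.

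Around *Lhx2*, the region 28457 bp downstream of the TSS had 92 counts in the control library and 25 in the HKO library, a ratio of −1.97 (95% interval −2.72 to −1.36). A region just inside the upstream RefSeq start of *Lhx2*, on chromosome 2 from 38339333 to 38339609, had 37 and 18 counts and a ratio of −1.14 (−2.08 to −0.33). A region within the RefSeq span of *Lhx2*, given to an unnamed gene and centred at +15822 bp, had 95 and 154 counts and a ratio of 0.56 (0.18 to 0.95). The regions with the ratios of −1.97 and −1.14 had a peak in the control library only, and so are in the table through the library where they are high.

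Upstream of *Pdgfra*, the region at −12515 bp had 55 counts in the control library and 21 in the HKO library, a ratio of −1.48 (95% interval −2.32 to −0.78), with a peak in the control library only. Upstream of *Lrat*, the region at −48434 bp had 16 and 74 counts, a ratio of 2.01 (1.28 to 2.95), with a peak in the HKO library alone. Past the end of *Tgfb1*, 2 regions assigned to *Ccdc97* had 45 and 79 counts and 73 and 128 counts, with ratios of 0.66 and 0.67 and peaks in the HKO library alone, while a region in intron 1 of *Bckdha* had 66 and 24 counts and a ratio of −1.56 (−2.33 to −0.90) and a peak in the control library only.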
